A study of Mus musculus with 4 samples.

Results

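The genes of the major histocompatibility complex (MHC) and of antigen presentation were followed in mouse embryonic fibroblasts that lack Mll1. The set was made of every gene whose symbol on the array platform starts with H2-, the mouse MHC prefix, and of 15 further genes of peptide processing and loading named one by one. It held 51 genes, 37 of them with an H2- symbol, out of 19087 genes with a singly named array feature. Psme2, a subunit of the proteasome activator, was the 1 listed gene with no such feature. The 51 genes were measured by 126 features, and 37 genes had at least 1 feature with a value on every array. The other 14 were not tested.

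Total RNA of Mll1-/- fibroblasts was hybridised against RNA of wild-type fibroblasts on each of 4 Agilent whole-genome arrays. Both are labelled as fibroblast lines, grown in DMEM with 10% fetal bovine serum. The dyes were swapped, with knockout RNA in Cy5 for arrays 1 and 3 and in Cy3 for arrays 2 and 4. The 4 arrays form 1 group of log2 ratios, Mll1-/- over wild type. Mll1, also named Kmt2a, is a histone methyltransferase that marks active promoters and is known for keeping Hox genes expressed. The labels give neither the mouse strain, the deleted part of the gene, the number of lines nor which arrays share an RNA extract, so genotype and line cannot be told apart. A p-value here reflects how far the 4 arrays scatter after a dye term for each gene is fitted. That scatter may be only technical.

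MHC class I molecules carry peptides of the cell's own proteins to the surface, where CD8 T cells and natural killer cells read them. Peptides are cut by the proteasome, pumped into the endoplasmic reticulum by the TAP transporter, trimmed there and loaded onto a heavy chain paired with B2m. Class II molecules carry peptides from endosomes and are made chiefly by dendritic cells, macrophages and B cells. Other cells, fibroblasts among them, can be induced to make them by interferon gamma through the coactivator Ciita. Class I genes are many, close in sequence to each other and highly polymorphic between inbred mouse strains, so a feature named for one of them may also read its relatives.

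Which genotype is on top of the deposited ratios is stated nowhere in the sources used here. It was taken as Mll1-/- over wild type from the sample titles and because Kmt2a was lower that way, at −1.61, −1.58, −1.01 and −0.78 on arrays 1 to 4. If it runs the other way, every rise and fall here changes places. Each array held a value for 31603 to 37425 of 45018 features, array medians lay between −0.02 and 0.03, and the arrays correlated across features with r from 0.72 to 0.85. Channel intensities were not used here, so the signal behind a ratio is unknown, and ratios give no order of levels between genes.

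Antigen presentation genes moved both ways. Of the 37 with a value on every array, 13 rose and 15 fell (limma with a dye term for each gene, Benjamini-Hochberg adjusted p under 0.05 over all genes). Across all 14222 genes tested, 59.2% were called, 29.1% higher and 30.1% lower, so calls were frequent throughout. The 28 called genes had the same sign on all 4 arrays. At least 2-fold changes were called for 6 higher and 6 lower genes, against 6.3% of all genes higher, 8.06% lower and 14.4% in either direction. The median log2 ratio of the 37 was −0.10 and the median absolute log2 ratio 0.53, beside −0.00074 and 0.34 over all genes tested. The widest changes were those of H2-DMb2, H2-Eb1 and H2-DMb1 of class II and of H2-T3, H2-T10 and H2-T22 in the T region of class I. Errors are SDs over the 4 arrays and adjusted p-values are those of limma. The SDs include differences between dye orientations, which the dye term takes out before the p-value. A gene can thus be called with an SD as large as its mean or larger.

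**Figure D1:**
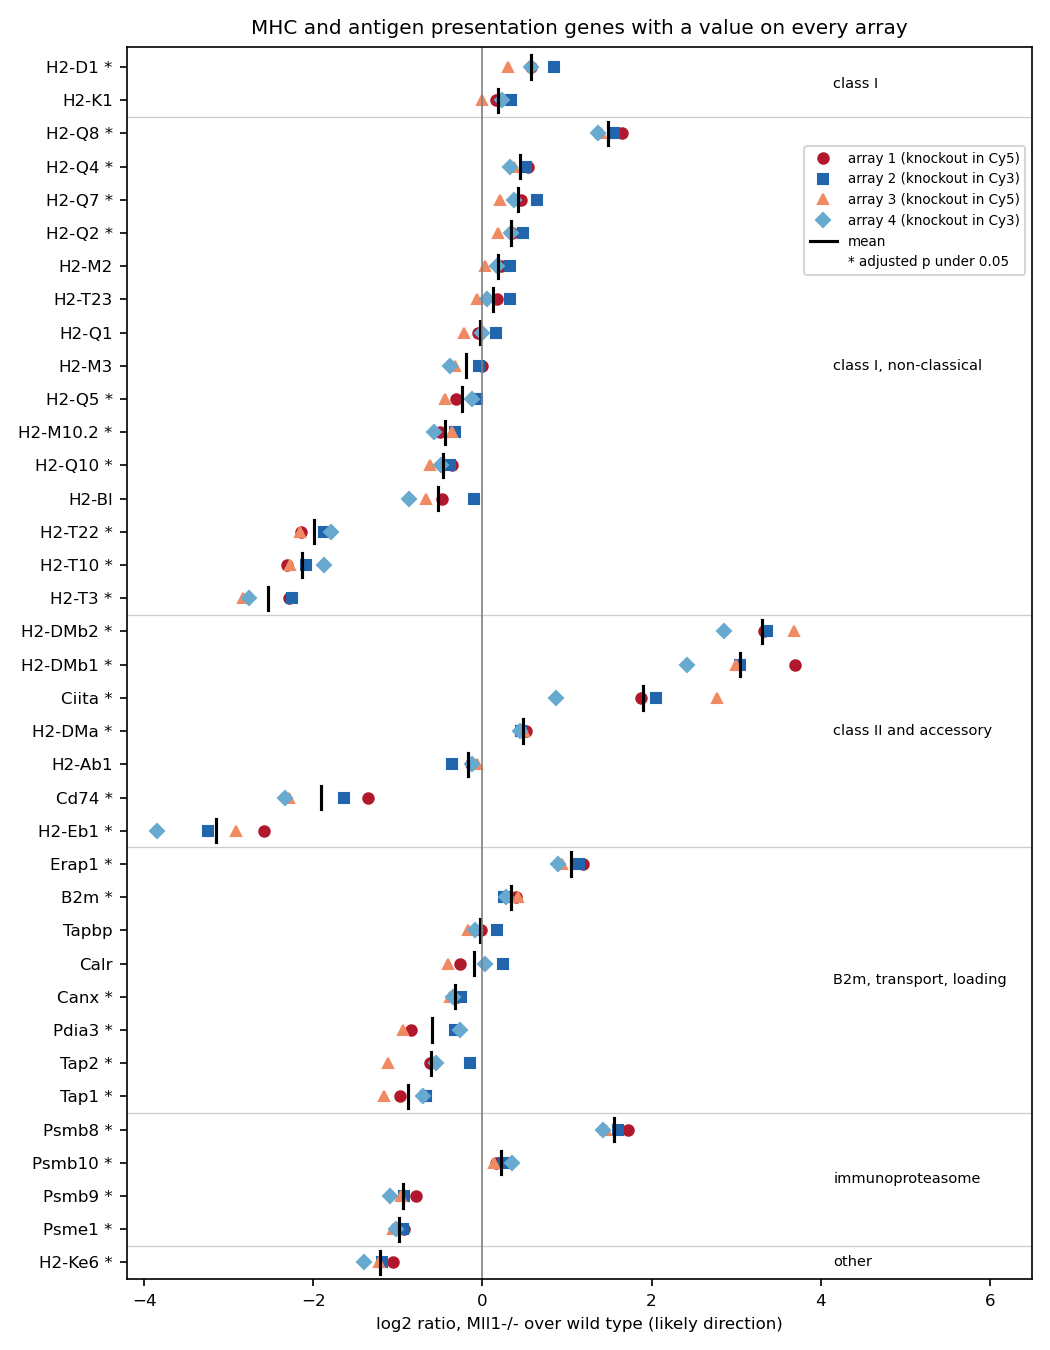
Log2 ratios (x axis, Mll1-/- over wild type) of the 37 genes with a value on every array, grouped by role (y axis), with 1 symbol per array and a bar at the mean. H2-DMb2 and H2-DMb1 lie above 2.4 on every array, and H2-Eb1 and H2-T3 below −2.2.

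To show the regulatory sequence beside the values, the promoter windows of 6 genes are printed, chosen after their values were seen. H2-DMb2, H2-DMb1 and H2-Eb1 had the widest changes, H2-T22 stands for the T region, and Psmb8 and Tap1 are neighbours that moved in opposite directions. They are RefSeq windows of build GRCm38.p6 that run from 250 bases before the start of the gene to 50 after it, 5′ to 3′ on the gene's strand. Capitals mark matches on either strand to any of 5 patterns. These were CCAAT, the core of the Y box, GCAACNGAT, a core of the class II X box, GGGANTCCC, a core of the enhancer A site of class I genes, GAAANNGAA, a core of the interferon-stimulated element, and GATGATGCT. The last was picked after the windows were read, as a stretch shared by class II genes, and it overlaps the X box core in H2-Eb1. H2-DMb2 lies at chr17:34144999-34145298 (plus strand), H2-DMb1 at chr17:34152941-34153240 (plus), Psmb8 at chr17:34197945-34198244 (plus), H2-Eb1 at chr17:34305617-34305916 (plus), H2-T22 at chr17:36042693-36042992 (minus) and Tap1 at chr17:34187306-34187605 (plus).
H2-DMb2: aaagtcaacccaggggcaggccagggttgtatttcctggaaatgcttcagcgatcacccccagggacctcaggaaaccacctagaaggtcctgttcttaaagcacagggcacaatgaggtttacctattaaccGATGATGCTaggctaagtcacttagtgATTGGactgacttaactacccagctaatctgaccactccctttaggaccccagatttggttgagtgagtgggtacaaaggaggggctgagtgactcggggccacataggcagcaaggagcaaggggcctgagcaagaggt
H2-DMb1: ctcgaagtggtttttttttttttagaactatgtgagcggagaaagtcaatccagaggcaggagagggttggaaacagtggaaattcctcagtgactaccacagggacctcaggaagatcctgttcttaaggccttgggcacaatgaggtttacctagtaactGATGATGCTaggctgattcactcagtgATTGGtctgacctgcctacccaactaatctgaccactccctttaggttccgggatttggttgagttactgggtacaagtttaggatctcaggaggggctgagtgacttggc
Psmb8: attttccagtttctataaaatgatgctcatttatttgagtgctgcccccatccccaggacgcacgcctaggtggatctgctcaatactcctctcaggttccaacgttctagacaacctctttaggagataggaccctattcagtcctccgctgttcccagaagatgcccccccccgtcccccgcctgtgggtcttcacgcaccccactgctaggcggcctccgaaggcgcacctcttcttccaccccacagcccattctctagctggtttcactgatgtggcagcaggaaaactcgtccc
H2-Eb1: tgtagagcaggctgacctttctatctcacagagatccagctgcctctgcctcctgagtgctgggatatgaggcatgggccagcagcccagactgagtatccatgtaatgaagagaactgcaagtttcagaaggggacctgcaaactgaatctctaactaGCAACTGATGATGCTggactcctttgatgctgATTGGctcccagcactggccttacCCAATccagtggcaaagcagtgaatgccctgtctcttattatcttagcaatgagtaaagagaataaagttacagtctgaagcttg
H2-T22: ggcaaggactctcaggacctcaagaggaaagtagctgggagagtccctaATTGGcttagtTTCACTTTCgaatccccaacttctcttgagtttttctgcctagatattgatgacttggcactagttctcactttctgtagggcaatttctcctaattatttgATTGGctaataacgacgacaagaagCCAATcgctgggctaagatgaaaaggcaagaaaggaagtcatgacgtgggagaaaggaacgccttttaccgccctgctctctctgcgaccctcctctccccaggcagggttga
Tap1: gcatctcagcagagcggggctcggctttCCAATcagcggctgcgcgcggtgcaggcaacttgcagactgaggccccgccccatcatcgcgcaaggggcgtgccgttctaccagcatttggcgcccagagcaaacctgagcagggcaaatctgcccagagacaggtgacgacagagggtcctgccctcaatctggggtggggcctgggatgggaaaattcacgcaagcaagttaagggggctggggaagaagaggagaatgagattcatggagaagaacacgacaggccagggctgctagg

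Promoter windows were matched for 40 of the 51 genes. CCAAT or its reverse occurred in those of 34 genes, and in 37.4% of 32851 windows of all genes. GATGATGCT occurred in H2-DMb1, H2-DMb2 and H2-Eb1 and in 0.274% of all windows. The X box core occurred in H2-Eb1 and H2-Eb2 and in 0.414% of all windows. Enhancer A occurred in H2-D1, H2-K1 and H2-Q7 (0.767% of all windows), and the interferon-stimulated element in B2m, Erap1, H2-T22, H2-T23 and Psme1 (8.56%). The windows of H2-DMb1 and H2-DMb2 were 58.9% identical in a global alignment. That of H2-Eb1 was 51.2% identical to that of H2-DMb1 and 46.7% to that of H2-DMb2. For comparison, the windows of Tap1 and Psmb8, which encode no class II chain, were 44.1% identical. Tap1 and Psmb9 start head to head, and 275 bases of their windows overlap on opposite strands. A match describes the letters only and is no evidence of a bound factor.

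Among class II genes, both beta chains of the peptide exchange factor H2-DM were higher in knockout fibroblasts while an antigen-presenting beta chain and the invariant chain were lower. Of 12 genes in this role, 7 had a value on every array, of which 4 rose and 2 fell. Over all genes 29.1% were higher and 30.1% lower. H2-DMb2, a beta chain of H2-DM, which helps class II molecules swap peptides in endosomes, stood at 3.33, 3.36, 3.68 and 2.85 on arrays 1 to 4. That is a rise of 9.90-fold (log2 ratio 3.31 ± 0.34, n = 4, adjusted p = 0.00104). H2-DMb1, the other beta chain, stood at 3.70, 3.05, 3.0 and 2.42 and rose 8.25-fold (3.04 ± 0.52, adjusted p = 0.00210). The feature behind each of these values was far above 0 on every array, and the genes lie next to each other on chromosome 17. A second H2-DMb2 feature with the same accession was blank on arrays 1 and 2 and did not show the rise, at −1.10 on array 3 and 0.0019 on array 4. The rise of H2-DMb2 therefore rests on 1 of its 2 features. They are near copies, so 1 feature may read both transcripts. H2-DMa, the alpha chain that pairs with them, was at 0.52, 0.46, 0.49 and 0.44 and rose 1.39-fold (0.48 ± 0.03, adjusted p = 0.00288), the smallest spread among the 37 genes.

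H2-Eb1, the beta chain of the class II molecule I-E, was lower by −2.58, −3.24, −2.91 and −3.85 on the log2 scale on arrays 1 to 4, an 8.86-fold difference (−3.15 ± 0.54, adjusted p = 0.00130). Cd74, the invariant chain that guards the class II groove until the endosome, was at −1.35, −1.64, −2.29 and −2.34, a 3.75-fold fall (−1.91 ± 0.49, adjusted p = 0.00745). Arrays 3 and 4 gave lower values than arrays 1 and 2 for Cd74, and all 4 were below −1.3. Ciita, the coactivator that switches on class II genes, rose 3.72-fold with the widest spread of the 37 genes (1.89 ± 0.79, adjusted p = 0.0128), at 1.88, 2.05, 2.78 and 0.87. Array 4 was lowest for Ciita, H2-DMb1 and H2-DMb2. Ciita and Cd74 thus had opposite signs on every array.

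H2-Ab1, the beta chain of the class II molecule I-A, was read by 13 features, of which 7 had a value on every array. Its mean did not pass the threshold (−0.17 ± 0.13, adjusted p = 0.0820), and none of these 7 features passed by itself. The other 6 features were blank on at least 1 array, with single values from −3.37 to 0.25. The complete ones ranged from −0.60 to 0.24, and within 1 array their SD was 0.312 to 1.04, while other genes with many features agreed far more closely. H2-Aa, its alpha chain, had values on at most 3 arrays, at 0.44, 1.77 and −0.30 on arrays 1, 2 and 4 for one feature and 0.52 on array 4 for the other. H2-Eb2 and H2-Oa had scattered values between −1.11 and 0.16 on 1 or 2 arrays per feature, H2-Ob 1 value of 1.52, and H2-Ea, a pseudogene in the RefSeq table, none.

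The classical class I heavy chains were slightly higher or did not pass. H2-D1, a main carrier of peptides to CD8 T cells, was at 0.57, 0.84, 0.30 and 0.57 and rose 1.49-fold (0.57 ± 0.22, adjusted p = 0.0109). H2-K1, the other classical chain on the array, averaged 0.18 ± 0.14 over 14 features and missed the threshold (adjusted p = 0.0535). It was at 0.17, 0.34 and 0.23 on arrays 1, 2 and 4 and close to 0 on array 3. It passed with each array centred on its median (adjusted p = 0.0381) and after averaging array 1 with 4 and 2 with 3 (adjusted p = 0.0223), which leaves H2-K1 at the edge of the test. All 14 features lay above 0, from 0.11 to 0.48, and 2 of them passed by themselves.

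Non-classical class I genes moved both ways. Of 24 genes, 15 had a value on every array, of which 4 rose and 6 fell (median −0.19), beside 29.1% higher and 30.1% lower over all genes. Without array 1 or without array 2, 1 gene was higher. The strongest falls, all in the T region, were those of H2-T3, H2-T10 and H2-T22. H2-T3, the thymus leukemia antigen, stood at −2.29, −2.26, −2.83 and −2.76 and fell 5.79-fold (−2.53 ± 0.30, adjusted p = 0.00196). A second H2-T3 feature, blank on arrays 2 and 3, read −1.20 on array 1 and −3.92 on array 4. H2-T22, known as a ligand of gamma delta T cell receptors, was at −2.15, −1.87, −2.16 and −1.79, a 3.98-fold fall (−1.99 ± 0.19, adjusted p = 0.000465). Its 2 features gave −2.03 and −1.96. H2-T10, a close relative of H2-T22 that RefSeq lists as a transcribed pseudogene in its reference strain, was at −2.31, −2.09, −2.27 and −1.87 (−2.14 ± 0.20, adjusted p = 0.000628). Since the sequences are so alike, the values of H2-T10 and H2-T22 may not be independent. For both genes the arrays with knockout RNA in Cy5 gave the lower values. H2-T23, the Qa-1 molecule that presents leader peptides to natural killer cells, is the next tested gene to H2-T22 on the chromosome. It did not pass (0.12 ± 0.17, adjusted p = 0.251), except after averaging array 1 with 4 and 2 with 3 (0.0350).

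In the Q region 4 of 6 called genes were higher, beside 29.1% higher and 30.1% lower over all genes. H2-Q8, of the Qa-2 family, was at 1.65, 1.55, 1.40 and 1.37 and rose 2.81-fold (1.49 ± 0.13, adjusted p = 0.00137). H2-Q7, the Qa-2 molecule, rose 1.34-fold (0.42 ± 0.19, adjusted p = 0.0212), with 0.45, 0.65, 0.20 and 0.37 on arrays 1 to 4. Its 10 features carry 1 accession and agreed closely, with an SD over features of 0.0178 to 0.0423 within an array. H2-Q4 (0.44 ± 0.11, adjusted p = 0.0104), at 0.54, 0.52, 0.37 and 0.32, and H2-Q2 (0.34 ± 0.12, adjusted p = 0.0138), at 0.36, 0.48, 0.19 and 0.34, also rose. The calls of these 3 small rises did not hold in every fit with 1 array left out. Such fits called 2532 to 2860 genes higher over all genes, against 4140 with all arrays. The call of H2-Q7 ended without array 1 (0.36, adjusted p = 0.0811) or array 2 (0.35, 0.0790). That of H2-Q4 ended without array 1 (0.40, 0.0532) or array 2 (0.39, 0.0514). That of H2-Q2 ended without array 1 (0.30, 0.0687), array 2 (0.31, 0.0735) or array 4 (0.37, 0.0519). After averaging array 1 with 2 and 3 with 4, H2-Q7 (adjusted p = 0.0628) and H2-Q2 (0.0621) did not pass.

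Falls of other non-classical genes were small or did not hold across features. H2-Q10, a class I protein secreted by the liver, averaged −0.47 ± 0.12 (adjusted p = 0.0101), with −0.36, −0.39, −0.62 and −0.49 on the arrays. Its 3 complete features disagreed, at −1.81 (adjusted p = 0.00163), −0.15 (adjusted p = 0.0526) and 0.57 (adjusted p = 0.0145), so the mean describes none of them. Another feature, blank on array 1, read −1.09, −0.29 and −0.44 on arrays 2 to 4. The call ended with the median over features (adjusted p = 0.0507) and without array 4 (−0.44, adjusted p = 0.0549). H2-Bl, a transcribed pseudogene in RefSeq that lies between H2-T22 and H2-T10, was split likewise, with features at −1.49 (adjusted p = 0.00807), −0.69 (0.0690) and 0.60 (0.0235). Its mean did not pass (−0.53 ± 0.33, adjusted p = 0.0599), but did without array 2 (−0.72, adjusted p = 0.0249), without the dye term (adjusted p = 0.0273) and after averaging array 1 with 4 and 2 with 3 (0.0493).

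H2-M10.2, of a family known from vomeronasal neurons, fell by 0.44 on the log2 scale, at −0.51, −0.33, −0.36 and −0.57 (SD 0.12, adjusted p = 0.0119, but 0.0598 without array 1, at −0.41). H2-Q5, a transcribed pseudogene, was at −0.31, −0.07, −0.44 and −0.12 (−0.24 ± 0.17, adjusted p = 0.0209). That call ended whichever array was left out, with log2 ratios of −0.27, −0.25, −0.20 and −0.22 without arrays 1 to 4 and adjusted p up to 0.109, and without the dye term (adjusted p = 0.0635). H2-M3, which presents formylated bacterial peptides (−0.19 ± 0.19, adjusted p = 0.184), and H2-Q1 (−0.03 ± 0.15, adjusted p = 0.728) did not pass. After averaging array 1 with 4 and 2 with 3, H2-M3 passed (adjusted p = 0.0176). H2-M2 (0.19 ± 0.12, adjusted p = 0.0650) did not pass either. It passed after the same averaging (0.0182), with each array centred on its median (0.0467) and by single features (0.0449). Its 10 features were at 0.21, 0.33, 0.03 and 0.17 on arrays 1 to 4, close to the 10 features that carry a single H2-K1 accession, at 0.12, 0.27, −0.03 and 0.20.

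**Figure D2:**
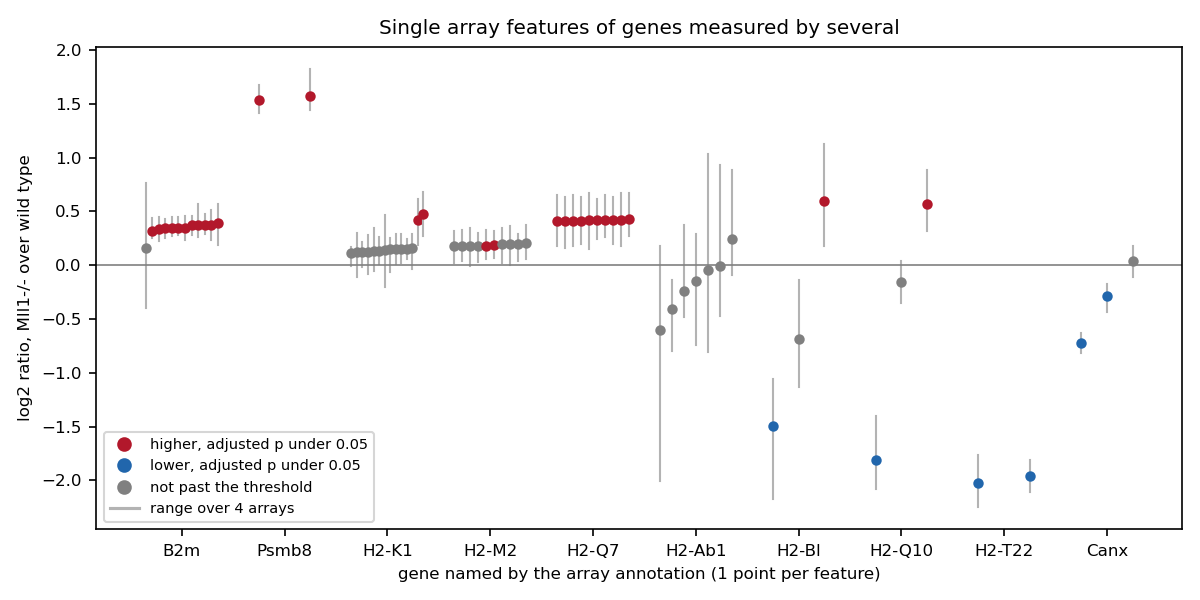
Log2 ratio (y axis) of each complete feature of 10 genes (x axis), as the fitted value (points, coloured by call) with the range over the 4 arrays (lines). The features of H2-Q7 lie within 0.41 to 0.43, while those of H2-Bl and H2-Q10 lie on both sides of 0.

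The class I light chain and the peptide-loading machinery moved unevenly. Of 8 genes, all measured on every array, 2 rose and 4 fell (median −0.21), beside 29.1% higher and 30.1% lower over all genes. Without array 3 or 4, 2 of the 8 were lower. B2m, the light chain shared by class I molecules, was at 0.40, 0.26, 0.42 and 0.28 and rose 1.27-fold (0.34 ± 0.08, adjusted p = 0.00553). Of its 12 features 11 passed by themselves, at 0.32 to 0.39, and the last, named by another accession, was at 0.16 with an SD of 0.60. Erap1, the aminopeptidase that trims peptides in the endoplasmic reticulum, was at 1.19, 1.14, 0.94 and 0.90 and rose 2.06-fold (1.04 ± 0.14, adjusted p = 0.00282). A second Erap1 feature, blank on array 1, read 3.08, 1.94 and 0.97 on arrays 2 to 4.

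The transporter genes fell. Tap1, one chain of the peptide transporter, was at −0.97, −0.67, −1.16 and −0.70, a 1.83-fold fall (−0.87 ± 0.23, adjusted p = 0.00191). Tap2, the other chain, was at −0.62, −0.15, −1.11 and −0.54, a 1.52-fold fall (−0.61 ± 0.40, adjusted p = 0.0266). The call of Tap2 ended without array 2 (−0.70, adjusted p = 0.0561), array 3 (−0.48, 0.0705) or array 4 (−0.51, 0.0906), and after averaging array 1 with 2 and 3 with 4 (0.0590). Array 3 was lowest for both chains. Pdia3, the oxidoreductase of the loading complex also called ERp57, was at −0.84, −0.33, −0.93 and −0.26 and fell 1.51-fold (−0.59 ± 0.34, adjusted p = 0.00261). Its values followed the dye, lower with knockout RNA in Cy5 (dye term −0.30, unadjusted p = 0.00369), and so did those of Tap1 (−0.19, unadjusted p = 0.0254) and Calr (−0.23, unadjusted p = 0.0238). Over the 37 genes 5 had an unadjusted dye p under 0.05, against 14.8% of all genes, and none passed after adjustment.

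The chaperone genes of loading changed little. Canx, encoding calnexin, which holds new heavy chains, averaged −0.32 ± 0.06 (adjusted p = 0.00911), at −0.30, −0.25, −0.39 and −0.34. Its 3 features gave −0.72 (adjusted p = 0.00158), −0.29 (0.0143) and 0.04 (0.568). The call of Canx ended without array 3 (−0.30, adjusted p = 0.0604) or array 4 (−0.30, 0.0591), and after averaging array 1 with 2 and 3 with 4 (0.0584). Calr, encoding calreticulin, stood at −0.27, 0.24, −0.41 and 0.03 and did not pass (−0.10 ± 0.29, adjusted p = 0.231), although the lower of its 2 features did (−0.24, adjusted p = 0.0261). Tapbp, encoding tapasin, which bridges the transporter and the heavy chain, did not pass either (−0.03 ± 0.15, adjusted p = 0.776).

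Immunoproteasome subunits, which replace the standard catalytic subunits under interferon and alter which peptides are cut, went in different directions. Psmb8 was at 1.73, 1.61, 1.47 and 1.43 on arrays 1 to 4 and rose 2.94-fold (1.56 ± 0.14, adjusted p = 0.00134), with 1.54 and 1.57 from its 2 features. Psmb9 was at −0.79, −0.93, −0.96 and −1.10 and fell 1.92-fold (−0.94 ± 0.13, adjusted p = 0.00213). The 2 genes lie on either side of Tap1 on chromosome 17, and their ranges over the arrays are far apart. Psmb10, the remaining catalytic subunit, was at 0.16, 0.25, 0.14 and 0.35 (0.22 ± 0.10, adjusted p = 0.0177). That call ended whichever array was left out, at 0.22, 0.25, 0.23 and 0.20 without arrays 1 to 4 (adjusted p from 0.0744 to 0.103). Psme1, the alpha subunit of the proteasome activator PA28, was at −0.93, −0.94, −1.06 and −1.02, a 1.98-fold fall (−0.99 ± 0.06, adjusted p = 0.00137).

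The standard proteasome showed smaller changes. Of 17 subunits and assembly factors listed, all tested, 4 rose and 6 fell, 58.8% called beside 59.2% of all genes. Their median log2 ratio was −0.01, with no change of 2-fold. With 1 array left out, 0 or 1 were higher, and without array 1 or 2, 2 or 3 were lower. Psmb5, the catalytic subunit that Psmb8 replaces, fell 1.44-fold (−0.53 ± 0.19, adjusted p = 0.00253), and Psmb6, which Psmb9 replaces, fell 1.28-fold (−0.36 ± 0.07, adjusted p = 0.00789). Psmb7, which Psmb10 replaces, did not pass (0.10 ± 0.25). Psmb1 (−0.49 ± 0.06) and Psma7 (−0.41 ± 0.16) also fell. Psma1 (0.45 ± 0.17), Psma4 (0.20 ± 0.10), Psmb2 (0.20 ± 0.11) and Psma5 (0.19 ± 0.12) rose. The calls of Psma4, Psmb2 and Psma5 ended whichever array was left out, with log2 ratios between 0.16 and 0.22. Those of Psma1 (0.39 and 0.41) and Psmb6 (−0.35 and −0.33) ended without array 1 or 2, and that of Psma7 without array 1 (−0.39).

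The 42 members on chromosome 17 share a place with genes of unrelated function. In the order of the RefSeq table (GRCm38.p6), the interval that runs from Tapbp to H2-M2 held 27 tested members and 94 other tested genes. Of the 27, 8 rose and 11 fell (median −0.17). Of the 94, 12 rose and 40 fell, with a median log2 ratio of −0.13 and 7 changes of at least 2-fold. Called were 70.4% of the 27 and 55.3% of the 94. Over all genes 59.2% were called, 29.1% higher, 30.1% lower and 14.4% at least 2-fold either way. Single neighbours moved as widely as the members, such as the complement gene C2 at −3.71 and the heat shock gene Hspa1a at 2.96, both named here after their values were seen. Within the class II stretch both signs occurred, mostly in short runs of neighbours with the same sign. The order was H2-DMa at 0.48, H2-DMb2 at 3.31, H2-DMb1 at 3.04, Psmb9 at −0.94 and Tap1 at −0.87. Then came Psmb8 at 1.56, Tap2 at −0.61, H2-Ab1 at −0.17 and H2-Eb1 at −3.15. H2-Q8 lies on another sequence of the table and was not placed. H2-Ke6, which encodes the enzyme Hsd17b8 and no MHC chain, was at −1.06, −1.19, −1.22 and −1.40 and fell 2.32-fold (−1.22 ± 0.14, adjusted p = 0.00158).

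**Figure D3:**
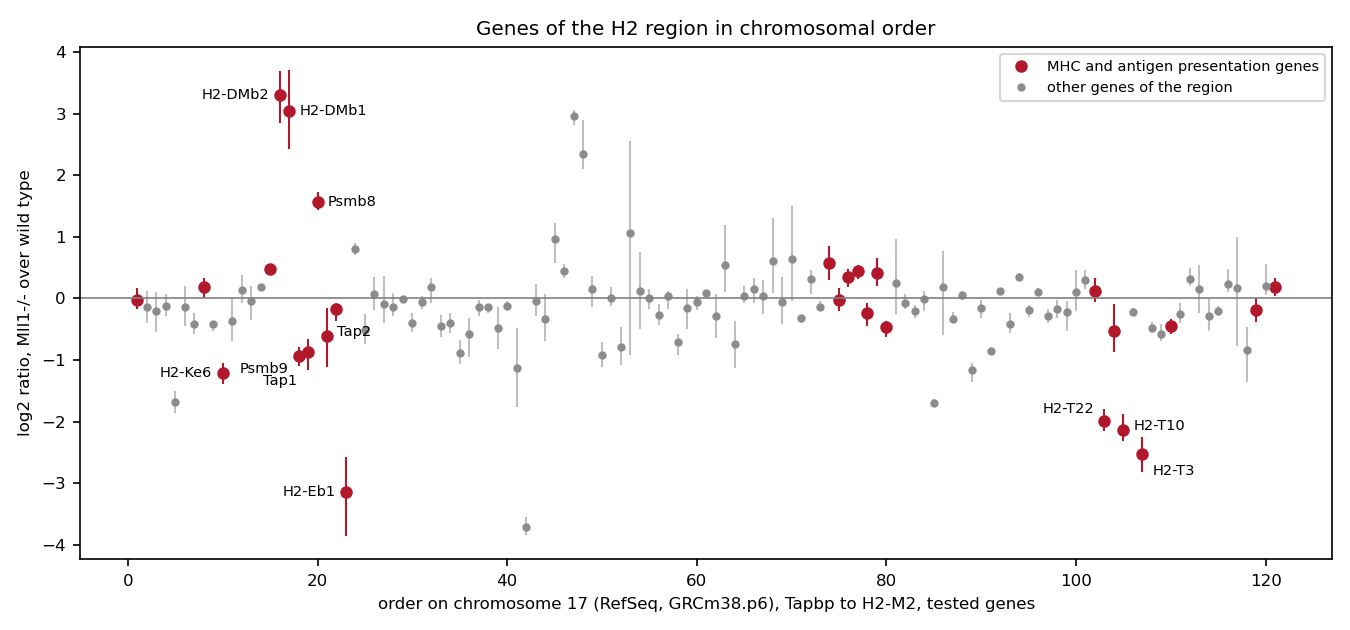
Mean log2 ratio (y axis, points) with the range over the 4 arrays (lines) of tested genes in their order on chromosome 17 (x axis, RefSeq order). Members (red) reach from −3.15 for H2-Eb1 to 3.31 for H2-DMb2, with 94 other genes of the interval in grey.

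The listed regulators of MHC transcription changed by less than 2-fold. Ciita, counted above with the class II genes, is not in this list and rose 3.72-fold (1.89 ± 0.79). Of 29 listed, 26 were tested, of which 5 rose and 12 fell (median −0.19), beside 29.1% higher and 30.1% lower over all genes. The counts were lower with 1 array left out, at 1, 1, 2 and 3 higher without arrays 1 to 4, and 7, 7 and 6 lower without arrays 2, 3 and 4. Stat3, a transcription factor of cytokine signalling, fell 1.79-fold (−0.84 ± 0.11, adjusted p = 0.00227). Socs3, its feedback inhibitor (−0.68 ± 0.18), Irf9, the DNA-binding part of the type I interferon complex (−0.65 ± 0.25), and Ifngr1, a chain of the interferon gamma receptor (−0.64 ± 0.11), fell as well. Nfyc, a subunit of the factor that binds the Y box, rose (0.57 ± 0.09, adjusted p = 0.00392). Of its partner subunits, Nfya was higher (0.21 ± 0.12, adjusted p = 0.0429) and Nfyb lower (−0.59 ± 0.11, adjusted p = 0.00317). Nlrc5, the class I counterpart of Ciita, was at 0.51, 1.06, 0.27 and 0.42 and rose 1.48-fold (0.56 ± 0.34, adjusted p = 0.0370). The call of Nlrc5 ended without array 1 (0.50, adjusted p = 0.126), array 2 (0.40, 0.0622) or array 3 (0.62, 0.0868). Rfxap (0.25 ± 0.16), a subunit of the X box factor, and the NF-kB subunit gene Rela (0.24 ± 0.24) passed, and both calls ended whichever array was left out (Rfxap 0.22 to 0.29, Rela 0.22 to 0.26). The lower of the 2 Rfxap features was at −0.29 (adjusted p = 0.0309), against the direction of the mean. Of the other X box factor subunits, Rfxank was lower (−0.35 ± 0.11, adjusted p = 0.0149) and Rfx5 did not pass (0.12 ± 0.91). Calls of Nfya, Nfyb and Rfxank with 1 array left out are not given here.

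Genes of endosomal processing for class II moved both ways. Of 11 listed, 10 were tested, of which 7 rose and 2 fell, with a median log2 ratio of 0.28, beside 29.1% higher over all genes. The untested gene was the cathepsin gene Ctss, whose 1 feature was blank on every array. Without array 1, 2 or 3, 4 genes were higher, and without any 1 array 1 was lower. Marchf1, a ubiquitin ligase that removes class II molecules from the cell surface, was at 4.65, 2.73, 4.47 and 1.63, a 10.3-fold rise (3.37 ± 1.45, adjusted p = 0.00236). The 2 arrays with knockout RNA in Cy5 gave the higher values. The lysosomal proteases Ctsz (2.02 ± 0.07), Lgmn (1.01 ± 0.16) and Ctsl (0.60 ± 0.12) rose 4.05-fold, 2.01-fold and 1.52-fold. Ctsb, another cathepsin, fell 2.10-fold (−1.07 ± 0.11, adjusted p = 0.00171). Ifi30, the thiol reductase GILT, was at −0.28 ± 0.09 (adjusted p = 0.00951), a call that ended whichever array was left out (−0.27 to −0.30).

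Of class I-like molecules outside the H2- symbols, Hfe and Mr1 fell most. Of 16 listed, with the ligands of the receptor NKG2D, 9 were tested, of which 2 rose and 4 fell (median −0.54). The share called was 66.7% of the 9, beside 59.2% of all genes. With any 1 array left out, 1 gene was higher. Hfe, a regulator of iron uptake that pairs with B2m, was at −3.33, −3.52, −2.76 and −3.15, a 9.13-fold fall (−3.19 ± 0.32, adjusted p = 0.00123). Mr1, which presents vitamin B metabolites to MAIT cells, was at −2.02, −3.31, −3.32 and −2.98, a 7.51-fold fall (−2.91 ± 0.61, adjusted p = 0.00407). Fcgrt, the neonatal Fc receptor, fell 2.20-fold (−1.14 ± 0.09, adjusted p = 0.00131) and Azgp1 1.78-fold (−0.83 ± 0.25, adjusted p = 0.00924). Ulbp1, a ligand of NKG2D, rose 3.41-fold (1.77 ± 0.43, adjusted p = 0.00683). Procr was at 0.14 ± 0.10 (adjusted p = 0.0403), a call that ended whichever array was left out (0.14 to 0.15).

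Other trimming, loading and quality control genes changed by less than 2-fold. Among 17 tested there were 3 rises and 6 falls, 52.9% called beside 59.2% of all genes. With any 1 array left out none of the 17 was higher and 2 or 3 were lower. The disulfide isomerase gene Pdia4 (−0.73 ± 0.10, adjusted p = 0.00189) and Tapbpl (−0.64 ± 0.13, adjusted p = 0.00575), a tapasin relative that edits class I peptides, fell. So did Hsp90b1 (−0.41 ± 0.16) and Sec61b (−0.29 ± 0.09), and the peptidase genes Ide (0.30 ± 0.12), Tpp2 (0.28 ± 0.16) and Thop1 (0.23 ± 0.14) rose. For Ide and Tpp2 the lower of the 2 features did not pass (0.036, adjusted p = 0.505, and 0.060, adjusted p = 0.469). None of these 5 calls held with array 3 or 4 left out, at −0.35 and −0.35 for Hsp90b1, −0.29 and −0.30 for Sec61b, 0.31 and 0.32 for Ide, 0.24 and 0.23 for Tpp2 and 0.27 and 0.27 for Thop1. Without array 1 or 2 the calls of Sec61b (−0.29, −0.28), Ide (0.29, 0.28), Tpp2 (0.32, 0.32) and Thop1 (0.18, 0.18) ended too, as did that of Hsp90b1 without array 2 (−0.47).

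**Figure D4:**
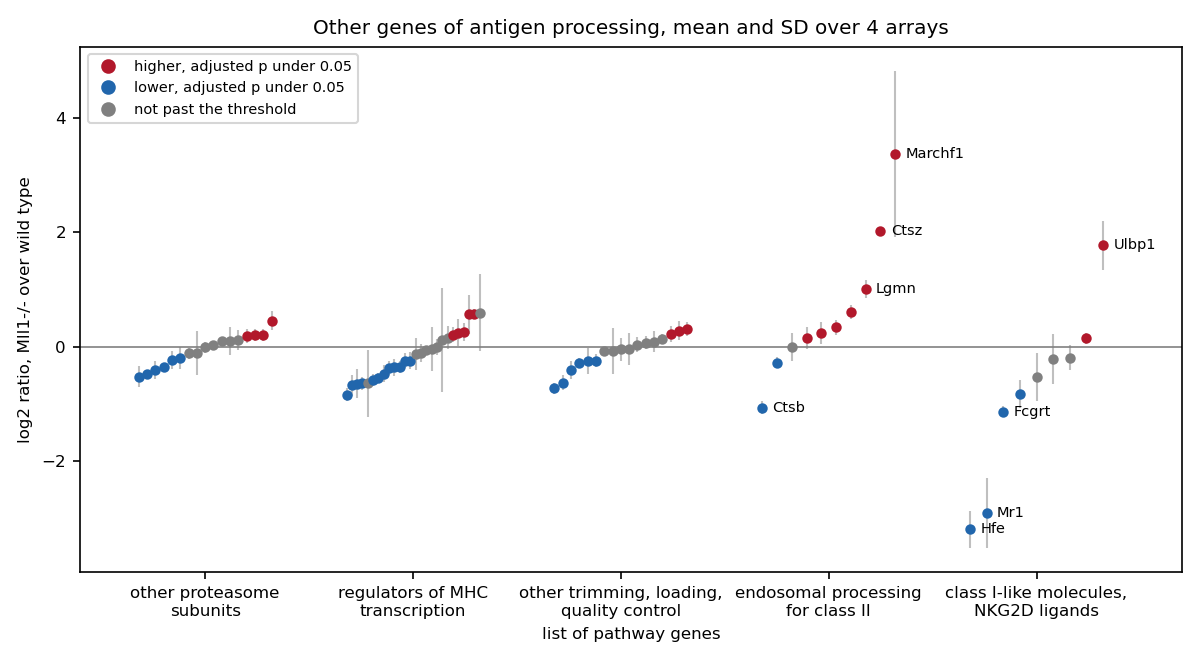
Mean log2 ratio with its SD over 4 arrays (y axis) for the tested genes of 5 lists of pathway genes (x axis), coloured by call. The proteasome, regulator and loading lists stay within 2-fold, while Marchf1 reaches 3.37 and Hfe −3.19.

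Markers of cells that carry class II by nature did not move one way. Of 18 leukocyte markers listed, 10 were tested, of which Lyz2 rose (2.27 ± 0.32) and Cd14 (−3.78 ± 0.12) and Fcer1g (−0.94 ± 0.38) fell. That is 30% called, beside 59.2% of all genes. The pan-leukocyte gene Ptprc was at 0.87, 2.46, 0.22 and −1.29 and did not pass, and Itgam, Adgre1, Laptm5, Cd52 and Cd79b had no feature complete on all arrays. Endothelial markers had 1 rise and 1 fall among 3 tested, and epithelial markers none among 3. The fall was that of Cdh5 (adjusted p = 0.0139), at 0.42, −1.35, 0.46 and −1.09 on arrays 1 to 4. Its sign followed the dye, above 0 with knockout RNA in Cy5 and below 0 with it in Cy3. Of 12 fibroblast markers 11 were tested, of which 5 rose and 4 fell (81.8% called). They ran from Pdgfra at −2.03 ± 0.24 and Dcn at −2.21 ± 0.85 to Col3a1 at 2.27 ± 0.53. Ratios do not show whether a marker is present at all. The part of other cells in these results was not tested, and a different share of cells of one type cannot be told apart from a different amount of RNA per cell.

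Blank values were spread unevenly over the roles. Across the 126 features 14.7% of the values were blank, against 18.9% over all singly named features. Class II genes had 33.6% blank and non-classical class I genes 16.3%, while classical class I, immunoproteasome genes and H2-Ke6 had none, and the light chain and loading genes 1 blank. The 14 untested genes were 5 of class II and 9 non-classical class I genes, or 27.5% of the members against 25.5% of all singly named genes. H2-Ea, H2-M10.1 and H2-M10.4 were blank on all arrays, and H2-M10.3, H2-M10.6 and H2-M9 held a value on array 4 alone (−0.10, 1.71 and 0.95). H2-M1, H2-M10.5 and H2-M11 held values on 2 arrays, from −0.49 to 0.97. For H2-T24, 1 feature held −5.52 on array 1 alone, and the other −0.14, 0.19 and 0.89 on arrays 1, 2 and 4. What a blank means is not stated in the sources used here.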

How the data were processed

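Per the labels' protocols, total RNA was labelled with the Agilent Quick Amp 2-colour method. Agilent Feature Extraction 10.1.1 was named in the submitters' processing notes. Each array has 1 deposited value per feature, taken as a log2 ratio made by the authors. The sources used here state neither its log base, which was inferred from the range, nor its background correction, normalization or direction. Values were used as deposited.

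Features were named through the platform annotation, and those with several symbols, none or a blank on any array were left out. This left 24012 features of 14222 genes, averaged per gene. The fit used limma (3.58.1, lmFit and eBayes, in R 4.3.3), with genotype and a dye term for each gene, which left 2 residual degrees of freedom. The model was tested on simulated data. Calls have a Benjamini-Hochberg adjusted p under 0.05 over all genes. All 51 member symbols matched RefSeq gene IDs (GRCm38.p6). Every member is accounted for, and of each pathway list up to 4 called genes each way are named, largest first. Psmb7, Nfya, Nfyb, Rfxank and Rfx5 are named besides, as counterparts or partners of named genes. Members and lists were chosen with earlier results of these data known. Alternatives were no dye term, centred or scaled arrays, single or median features, 1 blank allowed and a robust variance prior. Others were array pairs averaged or as a random block, each array left out, and a threshold of 0.01. The single feature was the middle one by log2 ratio. With an even number it was the lower of the middle pair, so of 2 features always the lower.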

Additional observations from a re-analysis of the deposited data

How the results depend on the processing

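Of the 28 called members, 19 passed with the same sign in all 14 alternatives, and 3 of the 9 others passed in none. No called member changed sign, while H2-Q1 (−0.07 to 0.02) and Tapbp (−0.09 to 0.04), which never passed, did. Centring, scaling, a robust prior and 1 blank allowed ended no member's call. At a threshold of 0.01, 7 members were higher, and 2410 genes were higher and 2606 lower over all genes. There the lists had 0 higher (classical class I), 1 higher and 3 lower (non-classical class I), 1 higher (immunoproteasome), 0 higher (other proteasome subunits), 1 higher and 7 lower (regulators), 1 higher and 3 lower (other loading), 4 higher (endosomal) and 1 higher (class I-like). With arrays 1 and 2, and 3 and 4, averaged, 2690 genes were higher, and the lists had 2 higher (non-classical class I), 2 lower (light chain and loading), 1 higher (immunoproteasome), 1 higher (other proteasome subunits), 1 higher and 7 lower (regulators), 0 higher and 2 lower (other loading), 4 higher and 1 lower (endosomal) and 1 higher (class I-like). Classical class I had 2 higher with centred arrays or arrays 1 and 4, and 2 and 3, averaged. Regulators had 3 higher without the dye term or by single features, other loading genes 1 higher by single features, and class I-like genes 1 higher without the dye term, also with a random block. Rfxap reversed by single features (−0.29), a setting that took the lower of its 2 features.

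Leaving out each array in turn gave 2532 to 2860 genes higher and 2879 to 3005 lower. Members higher were then 9 to 12 and lower 11 to 14. Non-classical class I had 1 to 4 higher and 4 to 6 lower, light chain and loading 2 to 4 lower, immunoproteasome 1 higher each time, other proteasome subunits 0 to 1 higher and 2 to 4 lower, regulators 1 to 3 higher and 6 to 9 lower, other loading 0 higher and 2 to 3 lower, endosomal 4 to 5 higher and 1 lower, and class I-like 1 higher. Where a call was lost, the cause was not tested beyond the fewer arrays in such a fit. The random block for arrays 1 and 2, and 3 and 4, could not be fitted beside the dye term, so it was run without it, an alternative chosen after seeing the data. Each array held both genotypes, so every ratio is already a comparison within 1 array. The main fit used no pairing between arrays.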
